A study of Mus musculus with 173 samples.

Results

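The cells described here are non-cycling, stem-like cells of the adult mouse dentate gyrus that carried much or very little Gfap mRNA, compared as 2 groups of 41 and 19 cells out of 172 single cells in the whole table. They were chosen from the cells whose titles start with C. A cell counted as stem-like when Slc1a3, the glial glutamate transporter GLAST, reached at least 100 TPM, and as non-cycling when the mean log2(TPM + 1) of Mki67, Top2a, Cdk1, Ccnb1, Cenpf and Birc5 was below 1. Of the C cells 81 met both conditions and 61 did not: 5 were too low in Slc1a3 and 59 too high in the cycling genes, with 3 cells in both counts. Gfap-high cells had at least 200 TPM of Gfap (41 cells) and Gfap-low cells had less than 5 TPM (19 cells), and the 21 cells from 5 to below 200 TPM are described separately.

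All cells came from the dentate gyrus of the hippocampus of C57BL/6 mice aged 8 to 12 weeks. The labels give no treatment and no allele, but the table has a row for eCFP, a cyan fluorescent protein, and every cell of both groups carried it. RNA of single cells was made into sequencing libraries with a whole-transcriptome amplification kit, and the values are TPM, length-scaled shares of all transcripts of a cell with no record of sequencing depth. The labels name no animal, so the cells of each group count together as 1 sample, no test was possible, and every SD below is a spread between cells.

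Gfap encodes glial fibrillary acidic protein, the intermediate filament of astrocytes. In the adult dentate gyrus, radial glia-like stem cells also carry it in their radial process, and together with Nes, Sox2 and Slc1a3 it has long served to mark them. In developing cortex its promoter is switched on late, through STAT3 downstream of the gp130 receptors, through BMP and Notch signals and through nuclear factor I proteins. Stem cells that enter the neuronal lineage lose it before they become intermediate progenitors.

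The levels that define the groups are given as a description. Gfap was at 254.72, 696.45 and 3218.96 TPM (lowest, median, highest) in the Gfap-high cells, against 0, 0.92 and 3.71 TPM in the Gfap-low cells, of which 7 were listed at 0. Just inside the upper threshold lay cells C89 (254.72 TPM), C64 (267.92 TPM) and C52 (273.35 TPM), and just outside it C97 (159.83 TPM) and C102 (158.77 TPM). Just inside the lower threshold lay C68 (3.71 TPM) and C105 (3.44 TPM), and just outside it C92 (6.36 TPM) and C70 (6.65 TPM). Gfap therefore ran through the intermediate range without a wide gap at either threshold, as the ranked plot of Gfap shows. Slc1a3, which both groups had to carry, had medians of 4835.65 TPM in Gfap-high and 4861.73 TPM in Gfap-low cells. The mean of the cycling genes was 0.60 ± 0.26 in Gfap-high and 0.64 ± 0.18 in Gfap-low cells. The eCFP row had medians of 8473 TPM in Gfap-high and 9096 TPM in Gfap-low cells, and the range in Gfap-high cells lay within that in Gfap-low cells.

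**Figure D1:**
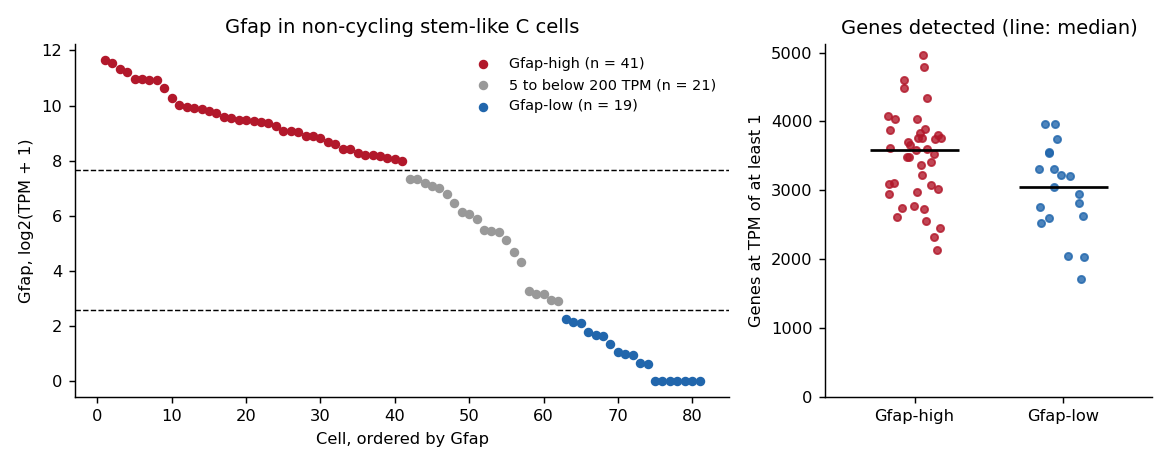
Left, Gfap as log2(TPM + 1) in the 81 non-cycling stem-like cells, ordered from the highest to the lowest, with dashed lines at 200 and 5 TPM. Right, genes detected (TPM of 1 or more) in each Gfap-high and Gfap-low cell, with the median as a line (3586 in Gfap-high and 3051 in Gfap-low cells).

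The groups differed in how many genes each cell showed. Genes at a TPM of at least 1 numbered 3486 ± 662 in Gfap-high cells and 2998 ± 642 in Gfap-low cells, and 33 of the 41 Gfap-high cells lay below the highest Gfap-low cell. The part of this gap in the differences below was not tested. For each gene the difference is the mean log2(TPM + 1) of the Gfap-high cells minus that of the Gfap-low cells. The 8507 genes that reached 1 TPM in at least 10% of the 81 cells had a median difference of 0.28, and 68.8% of them were above 0. A difference of at least 1 is used as the threshold below, in either direction. It was passed upwards by 1320 genes (15.5%) and downwards by 284 genes (3.34%). When each cell was divided by a size factor computed over 785 widely detected genes, the median moved to 0.07. The split became less uneven, with 770 genes (9.05%) higher and 605 (7.11%) lower. Counts and medians of gene groups are therefore read against these backgrounds. Widely detected genes had a higher background for TPM as deposited. Genes seen at 1 TPM or more in at least 50% of the 81 cells had a median difference of 0.51. Of these genes 27.3% were higher and 3.92% lower by the threshold. A list of widely detected genes can thus lie above 0.28 and 15.5% without exceeding genes of similar detection. How far detection shaped the list values below was not tested.

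The spread between cells was large beside these differences. The median SD over genes was 2.39 in Gfap-high and 2.24 in Gfap-low cells. Apart from the genes that chose the cells, 1603 genes passed the threshold, and in only 4 of these (Oat, Insig1, Impact and Bcl2) was the difference larger than the SD in both groups. In 0 of 8502 genes were the groups free of overlap. Each gene below thus overlapped between the groups.

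Genes that astrocytes share with radial stem cells were higher in Gfap-high cells. Of the 19 measured astrocyte markers 8 passed the threshold upwards and 0 downwards, with a median difference of 0.82 against 0.28 for all genes, and with size factors 6 were higher and 1 lower, with a median of 0.54 against 0.07. Gja1, the gap junction protein connexin 43, had a lowest, median and highest level of 1.67, 911.61 and 6040.67 TPM in Gfap-high cells, against 0, 505.07 and 2824.04 TPM in Gfap-low cells. On the log scale that is 9.12 ± 2.34 in Gfap-high and 6.66 ± 4.27 in Gfap-low cells, a difference of 2.46. All 41 Gfap-high cells but 16 of 19 Gfap-low cells had at least 1 TPM, and the wide SD in Gfap-low cells reflects some cells with ample Gja1 and some with almost none. Aqp4, the water channel of astrocyte endfeet, was at 1 TPM or more in 14 of 41 Gfap-high cells (34.1%, exact 95% interval 20.1 to 50.6) and in 1 of 19 Gfap-low cells (5.26%, 0.133 to 26). These intervals are Clopper-Pearson intervals and cover counting error only. They treat cells as independent draws, here and below, so they do not test a difference between the groups. Agt, the hormone precursor angiotensinogen that astrocytes make in brain, reached 1 TPM in 34 of 41 Gfap-high cells (82.9%, 67.9 to 92.8) and in 10 of 19 Gfap-low cells (52.6%, 28.9 to 75.6), a difference in level of 2.11. Ntsr2, an astroglial neurotensin receptor, had medians of 335.33 TPM in Gfap-high and 36.23 TPM in Gfap-low cells, a difference of 1.71 that turned to -0.68 in the 21 Gfap-high and 5 Gfap-low cells above the median number of genes. The other markers past the threshold were Kcnj10 (1.65), Ndrg2 (1.57), Fgfr3 (1.43) and Mfge8 (1.32).

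Other classical astrocyte markers did not follow. S100b, a calcium-binding protein of mature astrocytes, averaged 0.94 ± 1.82 in Gfap-high and 1.73 ± 3.12 in Gfap-low cells and had a median of 0 in both. Aldh1l1, the folate enzyme used to label astrocytes, reached 1 TPM in 5 of 41 Gfap-high and 2 of 19 Gfap-low cells. The Gfap-low cells included C138, with a mean log2(TPM + 1) of 6.53 over the intermediate progenitor markers, and C139, with 7.07 over the oligodendrocyte precursor and 5.23 over the endothelial markers. Without these 2 cells Gja1 differed by 1.94, Aqp4 by 1.61, Agt by 1.93 and Ntsr2 by 1.49.

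The promoters of Gfap and of the 3 astrocyte markers with the largest difference are shown because Gfap is a known STAT and NFI target. Each run is 300 bases, from 250 bases before to 50 bases after the start of the RefSeq transcript on the build GRCm38.p6, a later build than the mm9 of the table, matched by gene symbol. Capitals mark every match to TTCNNNGAA, the STAT motif, which reads the same on both strands, and to TTGGC or its reverse complement GCCAA, the NFI core; no 2 matches overlap in these windows.
Gfap promoter, chr11:102897151-102897450 (-): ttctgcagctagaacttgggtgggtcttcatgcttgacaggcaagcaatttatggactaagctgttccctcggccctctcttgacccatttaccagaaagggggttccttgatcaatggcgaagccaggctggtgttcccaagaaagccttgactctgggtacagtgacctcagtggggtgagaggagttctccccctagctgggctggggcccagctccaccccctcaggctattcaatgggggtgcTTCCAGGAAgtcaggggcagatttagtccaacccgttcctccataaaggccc
Gja1 promoter, chr10:56377050-56377349 (+): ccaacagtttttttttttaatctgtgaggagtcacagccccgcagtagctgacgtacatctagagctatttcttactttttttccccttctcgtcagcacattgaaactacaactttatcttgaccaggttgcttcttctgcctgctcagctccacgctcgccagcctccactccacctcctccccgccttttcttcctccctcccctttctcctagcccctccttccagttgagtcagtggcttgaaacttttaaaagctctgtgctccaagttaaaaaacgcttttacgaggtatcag
Agt promoter, chr8:124569657-124569956 (-): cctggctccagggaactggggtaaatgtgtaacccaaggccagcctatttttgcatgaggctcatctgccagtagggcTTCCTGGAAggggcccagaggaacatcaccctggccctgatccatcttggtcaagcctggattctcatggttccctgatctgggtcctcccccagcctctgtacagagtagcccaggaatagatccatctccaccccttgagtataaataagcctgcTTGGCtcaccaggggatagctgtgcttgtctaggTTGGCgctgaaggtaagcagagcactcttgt
Ntsr2 promoter, chr12:16653220-16653519 (+): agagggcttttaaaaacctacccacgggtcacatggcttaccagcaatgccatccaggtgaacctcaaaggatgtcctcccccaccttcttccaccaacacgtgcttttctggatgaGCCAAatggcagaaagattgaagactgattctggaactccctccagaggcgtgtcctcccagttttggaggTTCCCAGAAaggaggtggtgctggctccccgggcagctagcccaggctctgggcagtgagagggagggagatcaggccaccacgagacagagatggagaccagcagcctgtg
The Gfap window held 1 STAT match, which spans the annotated start, and 0 NFI matches. Agt held 1 STAT and 2 NFI matches, Ntsr2 1 of each, and Gja1 0 of either. Of 32851 promoter windows of the same length, 8.3% held the STAT motif, 46.71% the NFI core and 3.71% both. These matches are letters in a window, and binding was not measured.

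In the list of channels, pumps and connexins of astroglia 6 of the 14 measured genes passed upwards and 1 downwards (median 0.80; with size factors 5 and 1, median 0.60). The astrocyte list holds 5 of the 14 as well, among them 3 of the 6 that passed upwards, and the other 9 had a median of 0.60 and of 0.32 with size factors. Besides Gja1, Kcnj10 and Aqp4 they included Kcnj16 (1.73), a partner subunit of the Kcnj10 potassium channel, and Atp1b2 (1.69), a glial subunit of the sodium pump. Kcnj16 was at 1 TPM or more in 18 of 41 Gfap-high cells (43.9%) and 3 of 19 Gfap-low cells (15.8%), where its highest value was 2.37 TPM. The gene below the threshold was Slc9a3r1 (-1.08), a scaffold of membrane transporters, which turned to 0.71 in the cells with a cycling mean below 0.5. Of the 11 measured transmitter uptake and recycling genes 1 passed upwards and 0 downwards, with a median of 0.74 and of 0.22 with size factors. The median turned to -0.59 in the 14 Gfap-high and 4 Gfap-low cells with a cycling mean below 0.5.

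**Figure D2:**
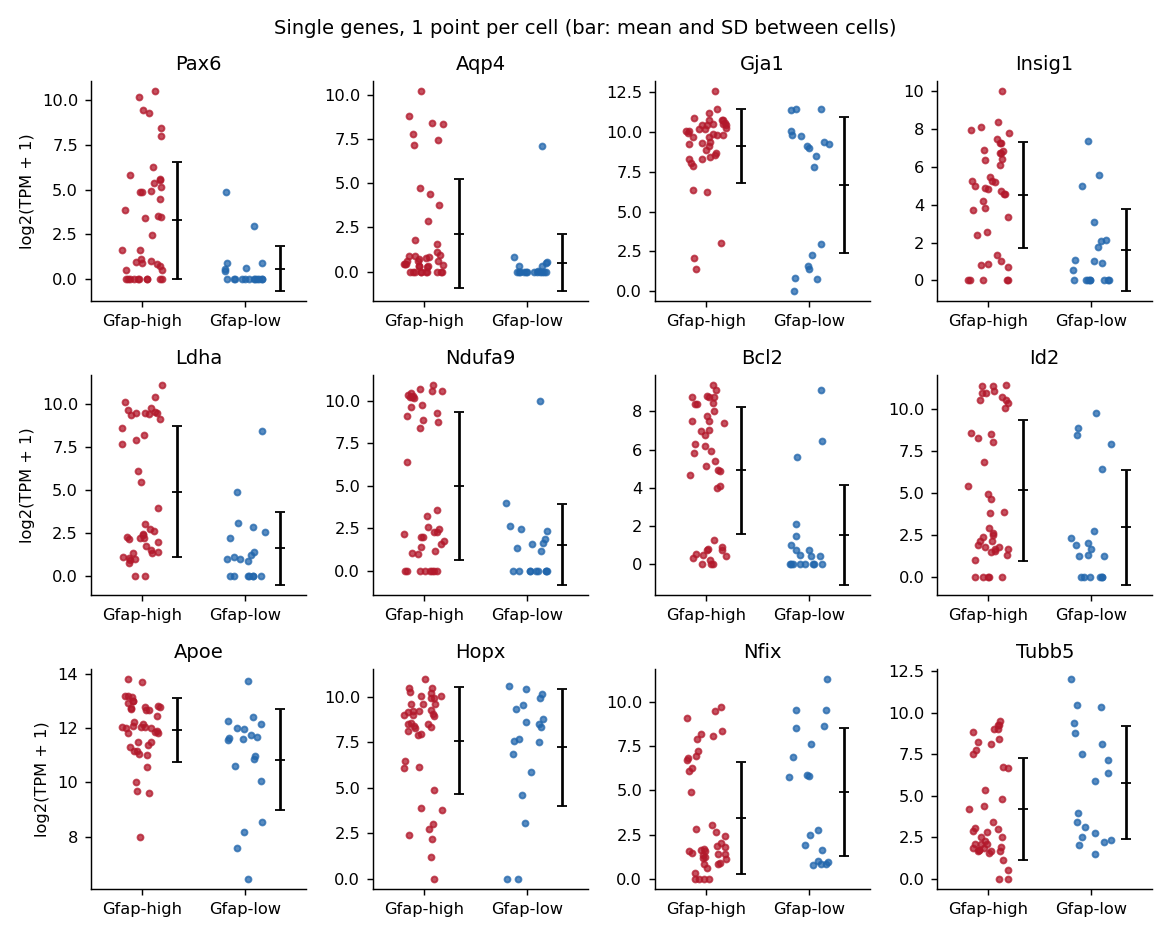
Log2(TPM + 1) of 12 genes in every Gfap-high and Gfap-low cell (1 point per cell, small horizontal scatter for clarity), with the mean and SD between cells as a bar. Pax6, Insig1, Ldha, Ndufa9, Bcl2 and Id2 show more cells at high levels among the Gfap-high cells, Hopx shows similar spreads, and Nfix and Tubb5 are higher in Gfap-low cells, with overlap of the groups in every gene.

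Stem cell markers did not move as a block. Of 14 measured markers 5 passed upwards (35.7%, against 15.5% of all genes) and 2 downwards (14.3%, against 3.34%), with a median of 0.53. With size factors 2 passed in each direction and the median turned to -0.13. Lpar1, a lysophosphatidic acid receptor found on dentate stem cells, was at 45.42 TPM (median) in Gfap-high and 1.19 TPM in Gfap-low cells, with 4.84 ± 3.65 against 2.41 ± 2.95 on the log scale. Ptprz1, a receptor phosphatase of radial glia, had medians of 603.44 TPM in Gfap-high and 316.88 TPM in Gfap-low cells. Its level was narrow in Gfap-high cells (9.22 ± 1.03) and wide in Gfap-low cells (7.46 ± 2.71). Its difference of 1.77 became 0.50 in cells with Slc1a3 of at least 1000 TPM and 2500 to 4000 genes detected. Ednrb, the endothelin B receptor, differed by 1.44. Sox2, a transcription factor of neural stem cells, also passed (1.20), but differed by 0.81 with size factors and by 0.95 without C138 and C139. In the other direction lay Sox1 (-1.61), a SoxB1 factor of neural progenitors, and Prom1 (-1.08), the surface protein CD133. Prom1 came to -0.83 without C138 and C139, and both turned positive in the cells with a cycling mean below 0.5 (0.72 and 1.06). Hopx, a marker of quiescent stem cells, had medians of 370.09 TPM in Gfap-high and 326.15 TPM in Gfap-low cells, and its difference of 0.36 turned to -0.37 with size factors and to -0.49 without C138 and C139. Sox9, which specifies glia, had 672.03 and 575.35 TPM, in Gfap-high and Gfap-low cells, and was seen in every cell of both.

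Other filaments did not separate the groups. Of the 6 measured filament and lamina genes 0 passed in either direction (median 0.24, and -0.17 with size factors). Vim, the filament partner of Gfap, averaged 5.79 ± 3.98 in Gfap-high and 5.27 ± 3.69 in Gfap-low cells, a difference of 0.51 that became -0.18 with size factors. Nes differed in how many cells showed it, with 19 of 41 Gfap-high cells (46.3%, exact interval 30.7 to 62.6) and 4 of 19 Gfap-low cells (21.1%, 6.05 to 45.6) at 1 TPM or more, but its medians were 0.58 TPM in Gfap-high and 0 TPM in Gfap-low cells, and its difference of 0.33 became -0.04 with size factors.

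Markers of the next lineage step were low in both groups. Of the 7 measured intermediate progenitor markers 0 passed upwards and 1 downwards (median -0.45; with size factors 0 and 2, median -0.73). That was Sox11 (-1.09), a factor of newborn neurons, which was at 1 TPM in 10 of 41 Gfap-high and 5 of 19 Gfap-low cells and differed by -0.39 without C138 and C139. Eomes, the defining factor of intermediate progenitors, was not seen in enough cells to be measured. Neurod1, a factor of the granule neuron lineage, reached 1 TPM in 6 of 41 Gfap-high and 6 of 19 Gfap-low cells, with highest values of 4.71 TPM in Gfap-high and 1947.31 TPM in Gfap-low cells. Of 7 neuroblast markers only Ncam1, the cell adhesion molecule, passed (2.03), with 110.99 TPM (median) in Gfap-high and 2.51 TPM in Gfap-low cells, but it turned to -0.20 in the cells above the median number of genes. Replication genes of S phase, which the rule did not use, had 1 of 15 members higher, Rrm1 (1.23), a subunit of ribonucleotide reductase, and 0 lower (list median 0.41, and 0.053 with size factors). The mean over the S phase list reached 3 in 2 Gfap-high cells, C95 (5.34) and C15 (4.37). It did so in 0 Gfap-low cells, where the highest value was 2.46, and in 1 cell between the thresholds, C109 (3.34). These cells thus counted as non-cycling by the genes of the rule only. Among G1 regulators the inhibitors Cdkn1b (1.06) and Cdkn2c (1.05) passed and 0 were lower, with 0.59 and 0.78 with size factors, when the list's median was -0.40 (0.21 for TPM as deposited). Cdkn2c also turned to -0.012 with Gfap of at least 500 against below 1 TPM. Ccnd2, the D cyclin of adult progenitors, had medians of 6.04 TPM in Gfap-high and 7.67 TPM in Gfap-low cells.

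Of the Id genes, targets of BMP signals that hold back differentiation factors, Id2, Id3 and Id1 passed upwards and Id4 did not pass. In the BMP and Id list 4 of 11 measured genes (36.4%, against 15.5% of all genes) passed upwards and 1 downwards, with a median of 0.62. With size factors 3 were higher and 1 lower (median 0.54). The share of 36.4% counts Id1, which was listed at 0 in every Gfap-low cell, so it is not read as a result. Id2 had a lowest, median and highest level of 0, 12.8 and 2722.21 TPM in Gfap-high cells, against 0, 2.15 and 835.28 TPM in Gfap-low cells, a difference of 2.20 and of 1.61 with size factors. Id3 was at 8.82 TPM (median) in Gfap-high and 4.4 TPM in Gfap-low cells, with a difference of 1.70 that turned to -1.47 in the cells above the median number of genes. Id1 was seen at 1 TPM or more in 8 of 41 Gfap-high cells (19.5%, exact 95% interval 8.82 to 34.9) and was listed at 0 in all 19 Gfap-low cells, which allows a share of up to 17.6%. Id1 passed the filter without any Gfap-low cell, so its difference could not be negative. That difference of 1.02 lay at the threshold, and was 0.97 with size factors. Id4, the member tied to stem cell quiescence, had medians of 83.03 TPM in Gfap-high and 78.38 TPM in Gfap-low cells and a difference of 0.11 that became -0.62 with size factors. Bmpr1a, a type I BMP receptor, differed by 1.52, and Smad1, the BMP effector, by -1.12.

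In the gp130 and JAK-STAT list, the route by which cytokines switch on Gfap in cultured progenitors, 0 of 9 measured genes passed in either direction, with a median of 0.29, close to that of all genes. With size factors 0 were higher and 1 lower, with a median of -0.11. Stat3 itself reached 1 TPM in 10 of 41 Gfap-high and 4 of 19 Gfap-low cells and differed by 0.29. Lifr, the receptor for leukaemia inhibitory factor, reached it in 21 of 41 (51.2%, exact interval 35.1 to 67.1) and 6 of 19 (31.6%, 12.6 to 56.6), with a difference of 0.93, and the kinase Jak2 differed by -0.95. Of 22 genes raised in injured astrocytes 4 were measured and 0 passed, and 8 were at 0 in every Gfap-high and 12 in every Gfap-low cell.

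Of the NFI factors Nfia stayed under the threshold (156.9 TPM in Gfap-high and 106.82 TPM in Gfap-low cells, medians; difference -0.19), Nfib was higher (127.47 and 41.27 TPM; 1.01, but 0.33 with size factors and -1.12 in the cells with a cycling mean below 0.5) and Nfix was lower (2.45 and 54.12 TPM; -1.43, and -1.97 with size factors). The clearest transcription factor was Pax6, which patterns the dorsal forebrain and marks radial stem cells. It was at 1 TPM or more in 25 of 41 Gfap-high cells (61%, exact interval 44.5 to 75.8), in 6 of the 21 cells between the thresholds (28.6%) and in 2 of 19 Gfap-low cells (10.5%, 1.3 to 33.1). The difference of 2.70 was 2.38 with size factors and 2.61 in cells with Slc1a3 of at least 1000 TPM and 2500 to 4000 genes detected. Lhx2, a LIM factor of cortical progenitors, was lower in Gfap-high cells, at 25.3 TPM (median) against 135.92 TPM in Gfap-low cells (-1.69), but it turned to 1.39 in the cells above the median number of genes. Over the 18 measured glial and quiescence factors 2 were higher and 2 lower, with a median of 0.11. With size factors 1 was higher and 4 lower, with a median of -0.059.

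Notch and Wnt genes had medians of 0.67 and 0.72, against 0.28 for all genes. With size factors the medians were 0.40 and 0.48, against 0.07. In cells with Slc1a3 of at least 1000 TPM and 2500 to 4000 genes detected they were 0.33 and 0.24, against 0.16. Of 9 measured Notch genes only Notch1, a receptor, passed (1.30), seen in 23 of 41 Gfap-high (56.1%) and 6 of 19 Gfap-low cells (31.6%), and the Notch targets Hes1 (0.67) and Hes5 (-0.03) did not. Of 11 measured Wnt genes 4 passed upwards and 0 downwards, among them Dkk3 (2.06), a secreted Dickkopf family member, and Apc (2.02), the scaffold of the beta-catenin destruction complex. With size factors 2 of the Wnt genes were higher and 1 lower. Of the 4 measured hedgehog genes 0 passed.

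**Figure D3:**
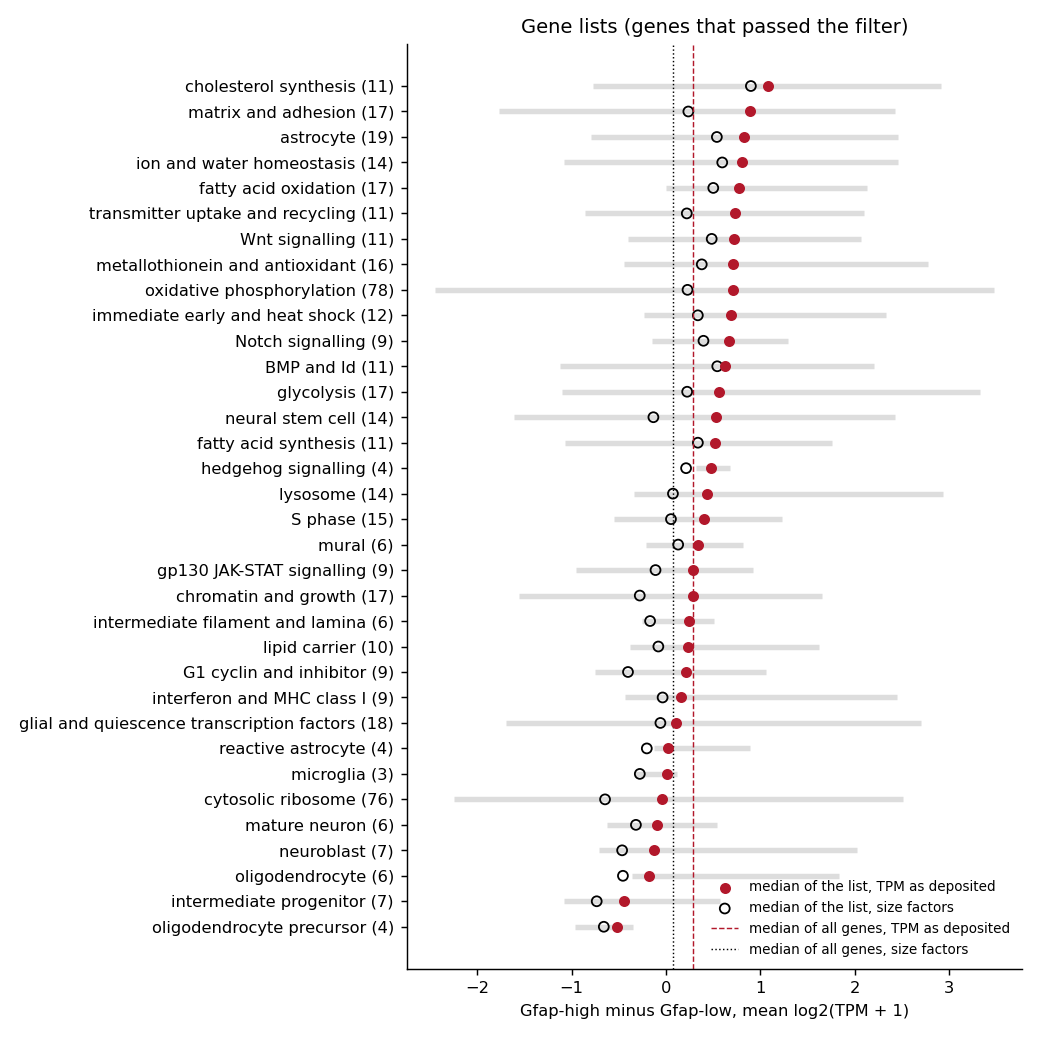
Median difference (Gfap-high minus Gfap-low, mean log2(TPM + 1)) of each gene list with at least 3 measured genes, as filled points for TPM as deposited and open circles after size factors, with grey bars from the lowest to the highest member for TPM as deposited. Vertical lines mark the median of all 8507 genes under the same scaling (0.28 and 0.07), and cholesterol synthesis, astrocyte, ion and fatty acid oxidation lists lie to the right of both lines.

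Sterol synthesis had the highest median of all lists with at least 3 measured genes, 1.08 (0.90 with size factors). Of its 11 measured genes 7 passed upwards and 0 downwards. That share of 63.6% compares with 15.5% of all genes and 27.3% of those seen in at least 50% of the 81 cells. With size factors 5 passed upwards and 1 downwards. Insig1, the sterol-regulated retention protein of SREBP, was at 0, 28.94 and 1038.85 TPM (lowest, median, highest) in Gfap-high cells, against 0, 0.91 and 162.49 TPM in Gfap-low cells. Its difference was 2.91, and 33 of 41 Gfap-high cells (80.5%, exact interval 65.1 to 91.2) and 9 of 19 Gfap-low cells (47.4%, 24.4 to 71.1) had at least 1 TPM. Sc4mol, the sterol C4-methyl oxidase, differed by 2.66 (-0.018 with log2 of mean TPM), and Cyp51, the lanosterol demethylase, by 2.18. Fdft1 (1.49), Idi1 (1.08) and Nsdhl (1.03) followed, while Fdps, farnesyl diphosphate synthase, differed by -0.77. The mean over the list per cell was 2.41 ± 1.05 in Gfap-high cells, 1.95 in the cells between the thresholds and 1.32 ± 0.66 in Gfap-low cells, and of the Gfap-high cells 10 had a mean of at least 3, against 0 of the Gfap-low cells. The list's median turned to -0.04 in the 14 Gfap-high and 4 Gfap-low cells with a cycling mean below 0.5.

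Of the 17 measured enzymes on the fatty acid oxidation list 7 (41.2%, against 15.5% of all genes) passed upwards. In this list 0 passed downwards and 10 did not pass (median 0.77). With size factors 4 were higher and 0 lower (median 0.50). Eci1, an isomerase of the same pathway that the list does not hold, differed by -2.18. In the cells with a cycling mean below 0.5 and in those above the median number of genes the list's median lay below that of all genes, at the most by 0.081. Acadm, the medium-chain acyl-CoA dehydrogenase, was at 2.94 TPM (median) in Gfap-high and 1.3 TPM in Gfap-low cells, with means of 3.92 ± 3.79 and 1.79 ± 2.46 on the log scale. Cpt1a, which admits fatty acids to mitochondria, differed by 0.08. In fatty acid synthesis 2 of 11 genes were higher and 1 lower (1 and 1 with size factors). Scd2, the brain desaturase, differed by 1.76. Elovl5, a fatty acid elongase, differed by 1.08, but by 0.75 with size factors, by -1.03 with log2 of mean TPM and by -1.55 in the cells above the median number of genes. The lower gene was Acly (-1.07, and -0.59 without C138 and C139), which supplies acetyl-CoA. Fasn differed by -0.33.

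In glycolysis 7 of 17 measured enzymes (41.2%, against 15.5% of all genes) passed upwards and 1 downwards, with a median of 0.56. With size factors 5 were higher and 2 lower (median 0.22). Both lactate dehydrogenase subunits led. Ldha was at 0, 5.65 and 2211.54 TPM in Gfap-high cells, against 0, 0.98 and 348.16 TPM in Gfap-low cells (lowest, median, highest). Ldhb was at 1426.66 TPM (median) in Gfap-high and 12.63 TPM in Gfap-low cells. The differences were 3.29 and 3.33, and 2.76 and 2.61 with size factors. Aldoa, the ubiquitous aldolase, was in every cell, at 2254.6 TPM (median) in Gfap-high and 659.23 TPM in Gfap-low cells (10.64 ± 1.80 and 7.96 ± 3.84). Aldoc, its astroglial relative, had 9245.32 and 5956.3 TPM in Gfap-high and Gfap-low cells, and its difference of 1.14 fell under the threshold with size factors (0.37) and without C138 and C139 (0.44). Tpi1, triose phosphate isomerase, went the other way (-1.10), though not in the cells above the median number of genes (1.25), and Slc2a1, the glucose transporter GLUT1, differed by -0.99.

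Subunits of oxidative phosphorylation passed the threshold in both directions. Of 78 measured subunits 32 were higher and 7 lower (41.03% and 8.97%), with a median of 0.71. Over all genes the shares were 15.5% and 3.34%. Over the widely detected genes they were 27.3% and 3.92%, with a median of 0.51. With size factors the counts were 16 and 11, with a median of 0.23. Under that scaling 9.05% of all genes were higher and 7.11% lower, with a median of 0.07. Ndufa9, a complex I subunit, was at 1 TPM or more in 33 of 41 Gfap-high cells (80.5%, exact interval 65.1 to 91.2) and 10 of 19 Gfap-low cells (52.6%, 28.9 to 75.6), and differed by 3.48. Ndufs6, another complex I subunit, differed by 2.66. Among the lower ones Atp5j2, a subunit of ATP synthase, had medians of 34.62 TPM in Gfap-high and 125.96 TPM in Gfap-low cells (-2.45), and Ndufa8 had 2.6 and 125.05 TPM (-2.17). Subunits of the same complex thus lay at both ends of the range.

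Cytosolic ribosomal proteins did not lean upwards as most lists did. Of 76 measured genes 12 were higher and 15 lower, with a median of -0.04, and with size factors 6 were higher and 27 lower, with a median of -0.65. Rps27l (2.51) and Rpl23a (1.87) were the highest, and Rpl36 (-2.24) and Rps15 (-2.14) the lowest. In the cells with a cycling mean below 0.5 Rps27l turned to -0.26 and Rps15 to 2.59, and Rps27l also turned to -0.21 with Gfap of at least 500 against below 1 TPM. Rpl36 had medians of 2143.08 TPM in Gfap-high and 6850.82 TPM in Gfap-low cells. The authors' tool divides reads among near-identical ribosomal copies, so values of single ribosomal genes are uncertain. The growth and chromatin list had 3 of 17 genes higher and 1 lower (median 0.29), and with size factors 0 higher and 3 lower, with a median of -0.28. Npm1 (1.66) and Dek (1.32), nuclear proteins of growing cells, fell under the threshold with size factors (0.95 and 0.84), and Npm1 turned to -0.77 in the cells above the median number of genes. The lower gene was Tubb5, a beta-tubulin of proliferating progenitors, at 6.24 TPM (median) in Gfap-high and 59.1 TPM in Gfap-low cells. Its difference of -1.56 was -2.25 with size factors and -1.02 without C138 and C139.

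Redox and lysosomal genes had positive differences in 14 of 16 and 13 of 14 measured members, when 68.8% of all genes were above 0. In the metallothionein and antioxidant list 6 of 16 measured genes (37.5%) passed upwards and 0 downwards, with a median of 0.71. The share higher was 15.5% over all genes and 27.3% over the widely detected genes. With size factors 3 genes of this list were higher and 1 lower, with a median of 0.38. Cat, the peroxisomal catalase, had medians of 16.52 TPM in Gfap-high and 1.11 TPM in Gfap-low cells (2.78), and Gpx4, which reduces lipid peroxides, 928.56 and 124.62 TPM (2.41). Prdx6, a peroxiredoxin of astroglia, had 2437.2 and 1413.15 TPM (1.49), and differed by 0.70 without C138 and C139. The metallothioneins Mt1 (0.61), Mt2 (0.49) and Mt3 (0.49) did not pass, and turned slightly negative with size factors (-0.16, -0.16 and -0.27). Of 14 lysosomal genes 4 (28.6%) passed and 0 were lower, a share close to that of the widely detected genes. The counts were the same with size factors, but the list's median of 0.44 became 0.074, close to that of all genes (0.07). The 4 genes were Ctsd, cathepsin D (2.93), Psap, the saposin precursor (2.90), Npc2, a cholesterol carrier (2.39), and Ctsb, cathepsin B (1.84). Psap had a highest value of 1871.77 TPM in Gfap-high and 25.37 TPM in Gfap-low cells. Cst3, the secreted cystatin C, had medians of 19327.8 TPM in Gfap-high and 18702.2 TPM in Gfap-low cells.

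Secreted lipid carriers had high medians in both groups. Apoe was at 4201.42 TPM in Gfap-high and 3095.87 TPM in Gfap-low cells (difference 1.09), and Clu at 3427.68 and 2762.85 TPM (1.63). Some cells had far less Apoe, at 6.44 in C14 and 7.59 in C138 (Gfap-low) and 7.97 in C30 (Gfap-high) on the log scale. Apoe and Clu fell under the threshold with size factors (0.33 and 0.88), and Apoe also without C138 and C139 (0.98). Apoe was at -0.021 in the cells with a cycling mean below 0.5 and at -0.028 in those above the median number of genes. The list's median of 0.23 turned to -0.081 with size factors, when 0 of its 10 genes were higher and 1 lower. In the matrix and adhesion list 5 of 17 genes were higher and 1 lower (median 0.89; with size factors 1 and 1, median 0.24). The median turned to -0.42 in the cells with a cycling mean below 0.5. Tnc, tenascin C of the stem cell niche, was at 60.82 TPM (median) in Gfap-high and 0.7 TPM in Gfap-low cells, and was seen in 29 of 41 (70.7%) and 7 of 19 cells (36.8%). Cdh2, N-cadherin, which anchors radial cells to their neighbours, had medians of 9.29 TPM in Gfap-high and 127.14 TPM in Gfap-low cells (-1.76).

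Immediate early genes, which react to cell dissociation, were higher in some Gfap-high cells. Of 12 measured genes 3 passed upwards, Fos (2.33), Dusp1 (1.87) and Jun (1.47), and 0 downwards. The share of 25% (15.5% of all genes) counts Dusp1, which could not have passed downwards, so it is not read as a result. Fos turned to -0.77 in the cells with a cycling mean below 0.5. Dusp1 was at 1 TPM or more in 14 of 41 Gfap-high cells (34.1%, exact interval 20.1 to 50.6) and in 0 of 19 Gfap-low cells (up to 17.6%). It thus passed the filter without any Gfap-low cell and could not have passed the threshold downwards. The list mean reached 3 in 3 of 41 Gfap-high and 0 of 19 Gfap-low cells. Among interferon and MHC class I genes B2m (2.45), the light chain of MHC class I, was the only one of 9 past the threshold.

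Genes outside the lists are named here when at least 50% of the cells of the higher group had 1 TPM or more. Of these the 10 largest differences in each direction are given. They were picked by these same values, so their shares and intervals are a description. Oat, ornithine aminotransferase, had the largest difference after Gfap, 4.35. It was at 0, 707.81 and 2536.1 TPM (lowest, median, highest) in Gfap-high cells, against 0, 1.95 and 1577.84 TPM in Gfap-low cells, and the difference was 3.84 with size factors. Ntrk2, the BDNF receptor TrkB that astrocytes carry in truncated form, was in every Gfap-high cell, at 13.39, 316.6 and 1191.09 TPM, against 0.48, 7 and 1134.7 TPM in Gfap-low cells. Its spread was narrow in Gfap-high cells and wide in Gfap-low cells (8.24 ± 1.25 and 4.94 ± 3.72). Bcl2, the anti-apoptotic protein, was at 1 TPM or more in 29 of 41 Gfap-high cells (70.7%, exact interval 54.5 to 83.9) and 6 of 19 Gfap-low cells (31.6%, 12.6 to 56.6), a difference of 3.41. The rest of the 10 highest of these genes were Mrps33 (3.54), a mitochondrial ribosomal protein, Nme1 (3.44), a nucleoside diphosphate kinase, Sbds (3.42), a ribosome maturation factor, Impact (3.38), a regulator of translation, Rnh1 (3.35), the ribonuclease inhibitor, Otub1 (3.30), a deubiquitinase, and the predicted gene Gm14295 (3.30).

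The 10 lowest of the genes outside the lists, by the same condition on the Gfap-low cells, were Btf3l4 (-2.64), Psme2 (-2.49), a proteasome activator subunit, Rab11a (-2.37), a GTPase of recycling endosomes, App (-2.19), the amyloid precursor protein, Eci1 (-2.18), an isomerase of fatty acid oxidation, Ttc3 (-2.12), Cnih (-2.05), Tm2d2 (-1.97), Psmb1 (-1.93), a proteasome subunit, and Atp6v0e (-1.92), a subunit of the vacuolar proton pump. Psmb1 turned to 1.29 in the cells above the median number of genes. App was at 1.51 TPM (median) in Gfap-high and 3.02 TPM in Gfap-low cells, and it was at 1 TPM or more in 65.9% and 63.2% of them, with highest values of 566.57 and 1249.75 TPM. Ttc3, an ubiquitin ligase, was at 6.52 TPM (median) in Gfap-high and 151.06 TPM in Gfap-low cells. Btf3l4 was at 1 TPM or more in 17 of 41 Gfap-high cells (41.5%, exact interval 26.3 to 57.9) and 14 of 19 Gfap-low cells (73.7%, 48.8 to 90.9).

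**Figure D4:**
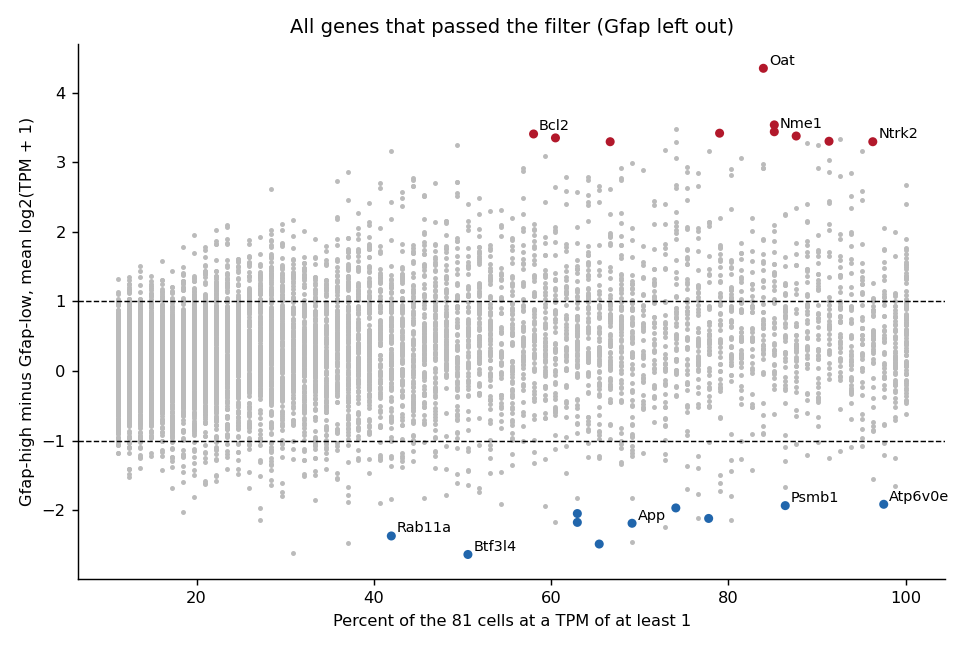
Difference of mean log2(TPM + 1), Gfap-high minus Gfap-low, of each gene that passed the filter apart from Gfap, against the percent of the 81 cells with at least 1 TPM, with dashed lines at 1 and -1. Coloured points are the genes with the 10 largest and 10 smallest differences that no list holds and that at least 50% of the cells of the higher group showed, from Oat at 4.35 to Btf3l4 at -2.64, and more points lie above the upper line than below the lower one.

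The 21 cells between the thresholds lay between the groups by some measures and outside them by others. They showed the most genes per cell (3826 ± 894, against 3486 in Gfap-high and 2998 in Gfap-low cells), and the median difference over all genes was -0.10 for Gfap-high minus these cells and 0.38 for these cells minus Gfap-low. These comparisons share cells with the one above. Of the 1320 genes higher in Gfap-high cells, 801 (60.7%) had a mean inside the range set by the other groups, 436 were still higher and 83 were below the Gfap-low mean. Astrocyte and stem cell lists were at their highest here: the astrocyte mean was 4.43 in Gfap-high cells, 4.76 in the cells between and 3.56 in Gfap-low cells, and the stem cell mean was 5.21, 5.54 and 4.69. Sterol synthesis (2.41, 1.95 and 1.32) and antioxidant genes (5.94, 5.73 and 5.07) followed the order of Gfap. Pax6 (3.30, 1.93 and 0.59), Ldha (4.89, 2.98 and 1.61) and Insig1 (4.52, 2.91 and 1.61) did so too, in mean log2(TPM + 1). Some of the cells between the thresholds stood apart. C137 showed 6742 genes, with a mean of 6.73 over the mature neuron and 5.72 over the erythroid markers, C114 had 3.19 and 6.03 over the same lists, and C112 had 4.17 over the intermediate progenitor markers. C128 and C97 had 3.68 and 4.22 over the erythroid markers. Without these 5 cells, a choice made after seeing the data, the other 16 showed 3633 ± 649 genes, the median differences became 0.010 and 0.27, and the mean of Pax6 became 1.09, of Ldha 3.69 and of Insig1 3.01.

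Over all 81 cells the genes with the pattern most like Gfap were found by Spearman's rho among 2191 genes seen in at least 50% of the cells. The highest were Otub1 (0.44), Map1lc3b (0.43), an autophagosome protein, Prdx6 (0.42), Ldha (0.41), Prdx6b (0.37), Insig1 (0.37), Mrps33, Tmem50a, Aldoa (0.36) and Oat (0.35). Prdx6b is a near copy of Prdx6, so the reads of both cannot be told apart with certainty. The lowest were Rn45s (-0.38), the ribosomal RNA precursor, Cox7a2 (-0.30), 4931406B18Rik, Psmb1 and Rpl13 (-0.28). Across these genes the 5th percentile was -0.14, the median 0.04 and the 95th percentile 0.23. The values describe 81 cells that share a tissue and a scaling to a fixed total. Rn45s, at medians of 2409.22 TPM in Gfap-high and 3811.37 TPM in Gfap-low cells, was in every cell.

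Markers of other cell types differed in how far they were present. The oligodendrocyte precursor list mean was at most 0.87 in Gfap-high cells and, apart from C139, low in Gfap-low cells, with median sums of 1.05 and 1.94 TPM over 9 genes. The endothelial list had median sums of 0.35 TPM in Gfap-high and 0.79 TPM in Gfap-low cells, the mature neuron list 2.94 and 5.27 TPM, and the microglia list 4.64 and 3.35 TPM, with 4 of 11 microglia genes at 0 in every Gfap-high and 5 in every Gfap-low cell. The neuroblast list was higher, with median sums of 174.62 TPM in Gfap-high and 126.42 TPM in Gfap-low cells, and the oligodendrocyte list had 38.28 and 9.66 TPM. Cnp, a myelin enzyme on the oligodendrocyte list, differed by 1.84 and stayed past the threshold in all 16 other settings, while the list's median was -0.18. The globin list had a list mean of at least 3 in 7 of 41 Gfap-high and 0 of 19 Gfap-low cells. Without C139 and those 7 cells 16.5% of genes were higher and 3.69% lower, and without C138 and C139 16.8% and 3.54%. In cells with Slc1a3 of at least 1000 TPM and 2500 to 4000 genes detected (30 Gfap-high and 13 Gfap-low cells, with 3356 and 3160 genes on average) the shares were 15.6% and 6.59%.

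**Figure D5:**
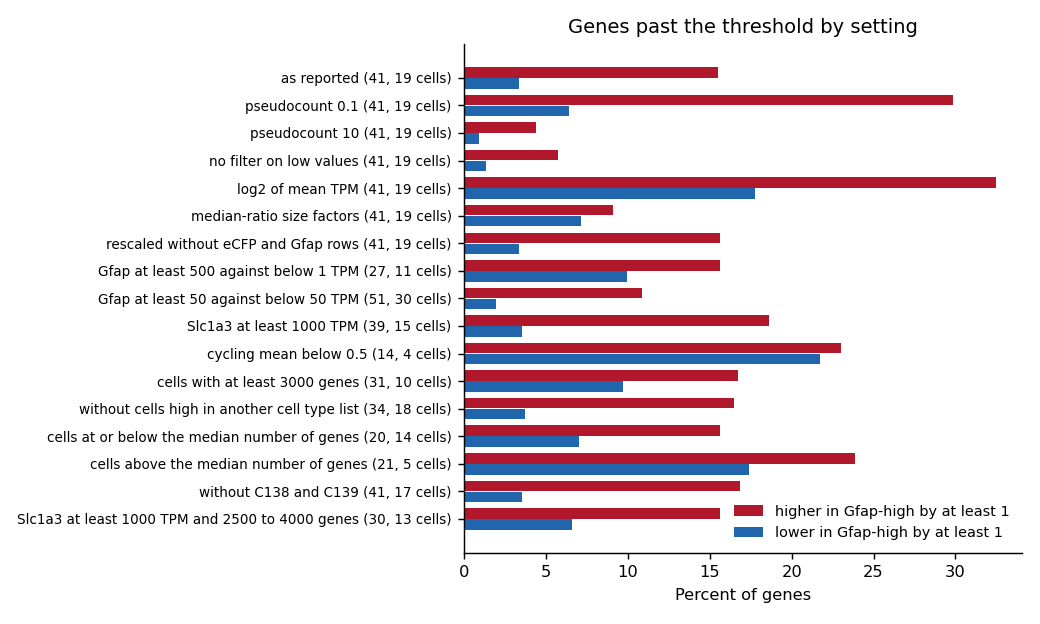
Percent of genes higher (red) or lower (blue) by at least 1 in Gfap-high cells under each setting, with the numbers of Gfap-high and Gfap-low cells in brackets. The shares were 15.5% and 3.34% as reported and 9.05% and 7.11% with size factors. Over the settings the share higher runs between 4.36% (pseudocount 10) and 32.5% (log2 of mean TPM), and the share lower between 0.88% (pseudocount 10) and 21.7% (the 14 and 4 cells with a cycling mean below 0.5).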

How the data were processed

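Single-cell RNA-seq of dentate gyrus cells was analysed from a table of TPM per gene that the authors deposited, in 172 columns. Per the labels' protocols, the NuGEN Ultralow V2 method turned total RNA of each cell into a library, and expression was estimated with RSEM against mm9, per the submitters' processing notes. Not given in the sources used here: its version, the aligner, the annotation and any cell filter. RSEM shares reads among near-identical genes, so paralogs and pseudogene families are uncertain. TPM keeps no depth, so no count test, floor or depth could be given; 78.7% of values in the 81 cells were 0, and a gene at 0 is only said to be listed at 0 (Gapdh was, in 1 Gfap-high cell).

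The labels list 173 samples. The column C27 fits 2 titles and was used as a C cell without a number of its own. Doublets were not called.

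A gene needed a TPM of at least 1 in 10% of the 81 cells (8507 of 23307 genes passed). The cells were pooled for this, so a gene could pass without any Gfap-low cell. Differences are of mean log2(TPM + 1), which understates changes of low genes, and a difference of at least 1 was the threshold. Shares carry exact Clopper-Pearson 95% intervals. Of 38 gene lists (13 of cell types, 25 of processes, 666 genes) each is described by its counts and median; lists without a sentence had 0 genes past the threshold or under 3 measured genes. Members, lists and the rule for named genes were chosen with earlier results of these data known. The rule takes the genes that chose the cells, a set of stem cell and glial genes, the 2 highest and 2 lowest of each list, the 10 at either end outside the lists among genes at 1 TPM in at least 50% of the cells of the higher group, the genes with the highest and lowest rho, and 4 promoters; other list members past the threshold were named after their values were seen. A few of the genes it takes are not reported here. Size factors were the median ratio over 785 genes. Promoters came from RefSeq on GRCm38.p6; 6330 of 8507 gene symbols matched. Python 3.11.15, numpy 2.4.6, pandas 2.3.3, scipy 1.17.1 and matplotlib 3.10.9 were used. The arithmetic of the difference was checked on measured values permuted between cells, with a known fold put into some genes.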

Additional observations from a re-analysis of the deposited data

How the results depend on the processing

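Of 16 alternatives 14 were planned and 2 were chosen after seeing the data (without C138 and C139, and the restricted range of Slc1a3 and genes detected). Against 1320 genes higher and 284 lower as reported, pseudocounts of 0.1 and 10 gave 2539 and 544, and 371 and 75; log2 of mean TPM 2762 and 1512; size factors 770 and 605; cells above the median number of genes (21 Gfap-high and 5 Gfap-low) 2029 and 1480. The count of lower genes also moved with Gfap of at least 500 against below 1 TPM (847), at least 50 against below 50 TPM (165) and a cycling mean below 0.5 (14 and 4 cells, 1708). It moved too with at least 3000 genes (822), cells at or below the median number of genes (596) and the restricted range (561). The cause was not tested. No paired analysis was possible because the results come from no test and the numbers in the titles only name cells; leaving out single replicates has no meaning with 1 sample per group.

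Of 186 named genes 89 passed the threshold, and of these 70 kept their sign and 23 stayed past the threshold in every alternative, among them Pax6, Id2, Ldha, Insig1, Oat, Bcl2, Ndufa9, Gpx4, Ctsd and Psap upwards and Btf3l4, Psme2, App, Ttc3 and Rpl36 downwards. Of 34 lists 13 kept the sign of their median. Of the 21 others, 5 had a median of at least 0.5 in size and are given below; the other 16 had smaller medians, and reached as far as -1.13 (microglia, from 0.014) and 0.47 (cytosolic ribosome, from -0.042). Only the astrocyte and the ion and water lists lay above the median of all genes in all 16, and only the intermediate progenitor and oligodendrocyte lists below it. The reversals among genes past the threshold and lists of that size were these. With a cycling mean below 0.5: Apoe -0.021, Nfib -1.12, Sox1 0.72, Prom1 1.06, Slc9a3r1 0.71, Cd9 -0.50, Fos -0.77, Rps27l -0.26, Rps15 2.59, and the lists oligodendrocyte precursor 0.37, transmitter uptake -0.59, cholesterol synthesis -0.037 and matrix -0.42. In cells above the median number of genes: Id3 -1.47, Apoe -0.028, Ncam1 -0.20, Lhx2 1.39, Tpi1 1.25, Elovl5 -1.55, Npm1 -0.77, Psmb1 1.29 and Ntsr2 -0.68. With log2 of mean TPM: Nfib -0.10, Elovl5 -1.03 and Sc4mol -0.018. With Gfap of at least 500 against below 1 TPM: Tpi1 0.17, Cdkn2c -0.012 and Rps27l -0.21. With at least 3000 genes, Tpi1 was 0.061. The transmitter uptake list was -0.089 in cells at or below the median number of genes and -0.025 in the restricted range. The neural stem cell list was -0.13 with size factors. The cause was not tested.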
